A study of Mus musculus with 4 samples.

Results

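Intergenic long noncoding RNAs (lncRNAs) are transcripts without a known protein product whose genes lie outside every protein-coding gene. Here a row of the fosTRAP-seq count table was taken as one when its class was lncRNA and its span, from the first to the last base, touched no protein-coding row of the same chromosome on either strand. Of the 28193 rows, 4494 were lncRNAs. Of these, 2563 overlapped a coding row, 10 well-known RNAs such as Malat1 and Meg3 were left out by name, and 1921 made up the set. In another annotation, GENCODE M39, 198 of the 1921 overlap a coding gene. Their median distance to the nearest coding gene was 17910 bases, with 418 of them within 1 kb and 586 more than 50 kb away.

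fosTRAP-seq sequences the RNA that comes down with the ribosomes of neurons that were active in a chosen time window. Male C57BL/6J mice of 3 to 5 months had received a pair of viral vectors in CA1, one with a tamoxifen-dependent Cre under the Fos promoter and one with a Cre-dependent, HA-tagged Rpl22, which sits in the large ribosomal subunit. On day 0 every mouse, the controls included, was sleep deprived for 5 h under 4-hydroxytamoxifen, so the tagged cells were those active during that first deprivation. On day 7 the SD mice went through another 5 h of deprivation, the NSD mice slept undisturbed, and the tissue was taken at ZT 5. Each library pooled the CA1 of 5 mice, giving n = 2 libraries per group. The labels name the dorsal hippocampus of cFos-Cre:Ribotag mice as the source instead, and they place 1 NSD and 1 SD library in each of the batches 1 and 2. The p-values below therefore measure the spread between pools. In such pooled tissue, fewer cells that make an RNA and less RNA per cell cannot be told apart.

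Many lncRNAs stay in the nucleus, where some act on chromatin, and others reach the cytosol, where they bind proteins or microRNAs. Some are the primary transcripts from which microRNAs are cut, in the nucleus, by the enzyme Drosha. Since they code for no known protein, an lncRNA read in a ribosome pull-down may come from RNA bound to ribosomes or from RNA carried along with them, and the counts do not separate these sources.

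Sequences inside the members are given here because 11 of the 28 members that fell in SD span a microRNA gene on their own strand. Of the members, 53 hold at least 1 microRNA gene of the GENCODE M39 annotation on their own strand, 91 such genes in all. The 11 of them that were called lower in SD hold 28 named microRNA genes, and 26 of these have a mature sequence in the RefSeq table for GRCm38.p6. Shown are 13 mature sequences from 9 of these hosts, with the seed, bases 2 to 8, in capitals, since the seed is the part that pairs with target mRNAs. They fall into 9 seeds. The miR-99/100 seed and that of miR-125b occur in both Mir100hg and Mir99ahg.
mmu-miR-100-5p: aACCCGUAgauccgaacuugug
mmu-miR-99a-5p: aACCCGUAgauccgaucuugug
mmu-miR-125b-5p: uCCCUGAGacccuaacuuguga
mmu-let-7a-5p: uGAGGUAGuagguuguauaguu
mmu-let-7c-5p: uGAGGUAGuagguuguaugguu
mmu-let-7d-5p: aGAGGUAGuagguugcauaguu
mmu-let-7f-5p: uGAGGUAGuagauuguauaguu
mmu-miR-9-5p: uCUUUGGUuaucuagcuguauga
mmu-miR-137-3p: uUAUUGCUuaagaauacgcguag
mmu-miR-138-5p: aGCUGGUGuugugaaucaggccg
mmu-miR-379-5p: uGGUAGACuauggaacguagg
mmu-miR-411-5p: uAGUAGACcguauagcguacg
mmu-miR-374b-5p: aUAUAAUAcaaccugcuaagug

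The 2 members with the most counts carry short sequences for which they are known. Norad binds the Pumilio proteins, which repress mRNAs through the element TGTANATA. A search of its 5002 exon bases on the transcribed strand found 11 of them, 2.2 per kb, against a median of 0 per kb over the 910 tested members with at least 1000 exon bases. One of them is shown with the element in capitals, chr2:156234231-156234260 of GRCm39, minus strand. Oip5os1, also called Cyrano, holds a site with long pairing to miR-7a-5p. Its 12210 exon bases had 2 matches to the seed, and at the one shown, chr2:119432613-119432642, plus strand, with the seed match in capitals, all 11 bases from 13 to 23 of the microRNA found their partner as well.
Norad Pumilio element: tagaagtcctgTGTATATAatatgaaaaag
mmu-miR-7a-5p: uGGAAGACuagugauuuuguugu
Oip5os1 miR-7a site: taagaacaacaaaatcaccaatGTCTTCCa

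The intergenic lncRNAs took a small part of every library. Their share of the counts was 0.517% and 0.456% in NSD, against 0.570% and 0.502% in SD. The groups overlapped. The means were 0.487% ± 0.0429 and 0.536% ± 0.0477 (standard deviation, n = 2 each), and an exact two-sided permutation test gave p = 0.667, where the design allows no p below 0.333. The 95% Wilson interval of the first NSD library was 0.516% to 0.518%, which covers counting error alone. Norad and Oip5os1 held 52.5% and 51.4% of the members' counts in NSD, and 61.0% and 59.9% in SD. Without them the share of the other 1919 members was 0.246% and 0.222% in NSD and 0.222% and 0.202% in SD, so the ratio of the means, SD over NSD, went from 1.10 to 0.906. Within each batch the share of all members was higher in SD, and that of the other 1919 was lower in SD.

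Of the 1921 members, 1033 had more than 5 counts in every library and were tested, and 888 were not. Most of the tested members were rare. The median of their mean levels was 0.343 CPM (read counts relative to library size, scaled with TMM factors), 269 reached 1 CPM and 46 reached 10 CPM. The 888 untested members summed to 0.00491% and 0.00420% of the counts in NSD and to 0.00323% and 0.00256% in SD, without overlap between the groups. Among them, 72 were at 0 in both SD libraries and 42 were at 0 in both NSD libraries. Over the whole table, too, fewer rows had any count in SD (27122 and 26179) than in NSD (27444 and 27551). Whether zeros in SD are particular to the members was not tested.

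In SD 28 of the tested members fell and 4 rose. The test was the quasi-likelihood test of edgeR, with p-values adjusted over all genes by the Benjamini-Hochberg method, and a call needed a fold change above 1.2 besides an adjusted p below 0.05. The falls were 2.71% of the tested members, where 2.33% of all 22338 tested rows fell, and 0.770% of all rows rose. The share of falls was thus near that of the whole table. The median log2 fold change of the members was -0.20, with quartiles of -0.71 and 0.14, against -0.02 over all tested rows. The SD libraries were both below the lower NSD library in 351 members (34.0%, all rows 27.5%) and both above the higher one in 155 (15.0%, all rows 22.0%). Within batch 1 the median log2 ratio, SD over NSD, was -0.22, and within batch 2 it was -0.19.

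The calls lay close to the threshold, with adjusted p-values from 0.0328 to 0.0479 for the 28 that fell. With the batch as a block, edgeR called 84 members lower and 16 higher (8.47% and 2.99% of all rows were called so), the 28 and the 4 among them. When filterByExpr chose the rows, edgeR called no member (128 lower and 32 higher at an unadjusted p below 0.05 with a fold change above 1.2). Coding genes lost their calls there as well, such as Sox11 and Rtl1 (edgeR adjusted p = 0.0628 each). Without the first NSD library most of the 28 lost their calls, with Gm3764, Mir100hg, Gm27000 and Lncpint as the exceptions. DESeq2 called 57 lower and 14 higher (6.03% and 3.12% of all rows with an adjusted p), among them 25 of the 28 and all 4.

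**Figure D1:**
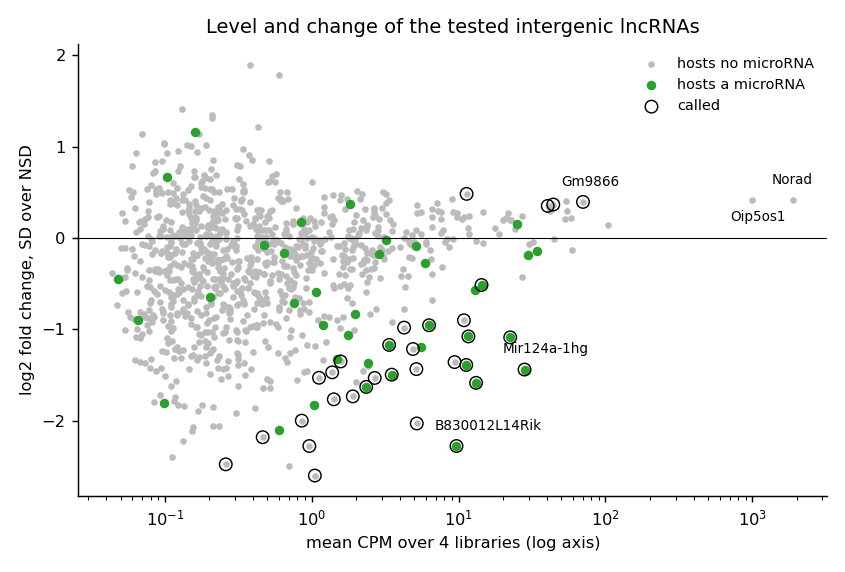
Mean CPM over the 4 libraries (x, log axis) against the log2 fold change, SD over NSD (y), for the 1033 tested intergenic lncRNAs, with microRNA hosts in green and called members ringed. The points at the right end are Oip5os1 and Norad, and 27 of the 32 called members are among the 258 with the highest levels.

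The calls came mostly from the better measured members. When the tested members were ranked by mean CPM and divided into 4 groups of near equal size, the group with the highest levels (258 members) held 23 of the 28 that fell and all 4 that rose, and the lowest (259 members) held none. The median log2 fold change was -0.33 in the lowest group and -0.07 in the highest.

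Of the 28 members that fell, 11 hold a microRNA gene. Of the 53 hosts, 39 were tested, 11 fell and none rose, with a median log2 fold change of -0.83. Of the other 994 tested members, 17 fell and 4 rose, with a median of -0.19. Among the 258 members with the highest levels, 11 of 27 hosts fell and 12 of 231 others did. This grouping was made by position after the fold changes had been seen, so these are counts without a test. The groups did not overlap, with SD the lower, in 27 of the 39 hosts (69.2%, against 32.6% of the other members and 27.5% of all rows), and the median log2 ratio was -0.97 within batch 1 and -0.63 within batch 2. With the batch as a block 20 hosts fell and none rose, where 8.47% of all rows fell.

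The hosts of miR-124, miR-9 and miR-137, microRNAs abundant in neurons, showed the size of the falls. Mir124a-1hg, also called Rncr3, is the primary transcript of a miR-124 gene. It had 52.5 and 29.8 CPM in NSD and 19.4 and 11 CPM in SD. The groups did not overlap, though the NSD libraries were farther from each other than the lower of them was from the higher SD library, and the log2 fold change was -1.44 ± 0.295 (SE, adjusted p = 0.0451, DESeq2 0.0947). Gm3764 holds Mir9-1 in an exon and went from 21.8 and 17.7 CPM to 8.48 and 4.69 CPM (log2 fold change -1.58 ± 0.241, SE, adjusted p = 0.0345). Gm26871 holds Mir137 in an exon. It went from 4.37 and 2.74 CPM to 1.41 and 0.888 CPM, a log2 fold change of -1.63 ± 0.31 (SE, adjusted p = 0.0397). In both the higher SD library was below the lower NSD library.

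Other transcripts of these microRNA families had smaller fold changes. Mir124-2hg, which holds a second miR-124 gene, had 33.3 and 30.4 CPM in NSD and 29.2 and 26.6 CPM in SD (log2 fold change -0.19 ± 0.0841, SE, adjusted p = 0.268). C130071C03Rik, with Mir9-2, had 37.1 and 34.4 CPM and then 33.6 and 31.3 CPM (log2 fold change -0.14 ± 0.0773, SE, adjusted p = 0.386). Mir9-3hg lay between, with 17.7 and 16.1 CPM in NSD and 11.9 and 11.7 CPM in SD, and its log2 fold change of -0.51 ± 0.0939 (SE) was called (adjusted p = 0.0385). The differences between these fold changes were not tested.

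Paired clusters of miR-99/100, let-7 and miR-125b sit in introns of Mir100hg and Mir99ahg, and let-7 microRNAs are known to mark differentiated cells. Mir100hg, on chromosome 9, had 35.5 and 25.6 CPM in NSD and 16.7 and 12.1 CPM in SD, a log2 fold change of -1.09 ± 0.179 (SE, adjusted p = 0.0363). Mir99ahg had 6.06 and 4.30 CPM and then 2.29 and 1.39 CPM (log2 fold change -1.50 ± 0.274, SE, adjusted p = 0.0386). 6720427I07Rik, which holds let-7d, let-7f-1 and let-7a-1 in its exons, went from 5.25 and 4.08 CPM to 2.42 and 1.72 CPM (log2 fold change -1.17 ± 0.227, SE, adjusted p = 0.0400). In all 3 the groups did not overlap. Gm49317, a row that overlaps Mir100hg and spans the same microRNA genes on the same strand, had 1.41 and 1.78 CPM in NSD and 1.95 and 2.18 CPM in SD (log2 fold change 0.37, adjusted p = 0.465). Lncppara, with let-7c-2 and let-7b, had a log2 fold change of -1.06 and was called lower with the batch as a block (adjusted p = 0.00895), not without it (0.0918).

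Of the hosts, the fall over all 4 libraries was largest in B830012L14Rik. Within batch 2 that of Mir181a-1hg (0.955 to 0.1 CPM) was larger in proportion. B830012L14Rik lies in the imprinted region of chromosome 12 that also holds Meg3, Rian and Mirg. It holds Mir379, Mir411 and 7 further microRNA genes in its introns. Its level was 21.3 and 10.8 CPM in NSD and 4.97 and 1.66 CPM in SD, 16.0 ± 7.41 against 3.32 ± 2.34 (standard deviation, n = 2), and the groups did not overlap. The log2 fold change was -2.28 ± 0.468 (SE, adjusted p = 0.0453, DESeq2 0.0750). It was -1.68 without the first NSD library, where the call was lost (adjusted p = 0.0809), -1.68 without the second SD library and -3.27 without the first. Its nearest coding gene, Rtl1, a retrotransposon-derived gene of the same region, fell as well (log2 fold change -1.37, adjusted p = 0.0363). C78859, which holds Mir138-2, went from 9.54 and 7.08 CPM to 4.97 and 3.61 CPM (log2 fold change -0.95 ± 0.2, SE, adjusted p = 0.0472).

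Gm27000, the host of Mir1906-2 with the lowest adjusted p of the members (0.0328), is not an independent measurement. It fell from 18.6 and 14 CPM to 7.28 and 5.19 CPM (log2 fold change -1.39 ± 0.185, SE). Of the 743 windows of 100 bases in its exon, 498 (67.0%) occur unchanged in Meg3, whose level fell from 1359 and 885 CPM to 609 and 463 CPM. The counting model divides reads that match several genes, so part of the reads counted here may be those of Meg3.

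**Figure D2:**
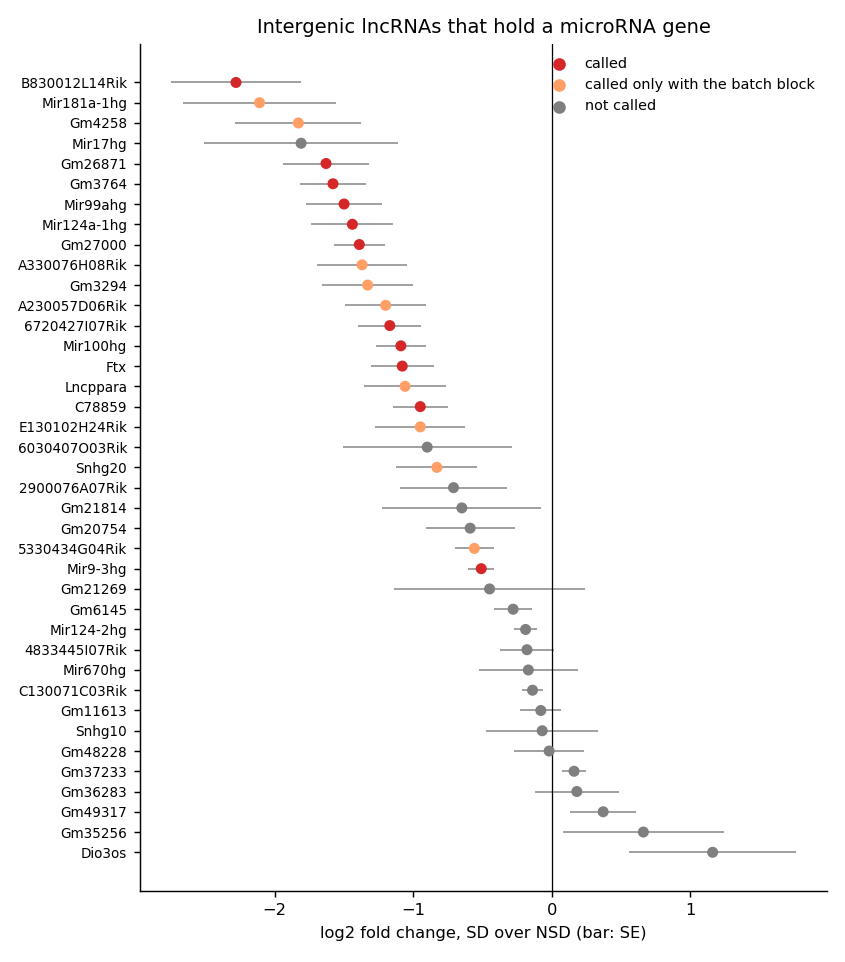
Log2 fold change, SD over NSD, with its standard error (bar) for the 39 tested members that hold a microRNA gene. Of the 39 points, 34 lie below 0, the 11 called hosts are in red and those called with the batch block alone in orange.

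The hosts hold their microRNAs in exons and in introns alike. Of the 29 microRNA genes in the 11 called hosts, an unnamed one included, 12 lie in an exon, 16 in an intron and 1 across an exon edge. Of the 16 in an intron, 9 are in B830012L14Rik. The library was made from total RNA after depletion of ribosomal RNA, without a step that selects small RNA, so the counts are those of the long host transcripts and say nothing of the mature microRNAs.

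On the X chromosome 5 of 24 tested members fell and none rose, with a median log2 fold change of -0.55, against 23 of 1006 on the autosomes with a median of -0.20 and 2.33% of all rows. Ftx and Jpx, which overlap on opposite strands and are known as activators of Xist, and Firre, which shapes X chromatin, were lower in SD without overlap between the groups. Ftx, which also hosts Mir421 and Mir374b, had 19.7 and 12.0 CPM in NSD and 8.61 and 6.40 CPM in SD (log2 fold change -1.08 ± 0.227, SE, adjusted p = 0.0476, DESeq2 0.0872). Firre had 16.0 and 12.3 CPM and then 8.70 and 6.49 CPM (log2 fold change -0.90 ± 0.171, SE, adjusted p = 0.0397). Jpx had 5.55 and 4.68 CPM and then 3.85 and 3.20 CPM (log2 fold change -0.54 ± 0.174, SE), and it was called with the batch as a block (adjusted p = 0.0198), not without it (0.133). The other 3 X-linked members that fell were Gm26652, Gm14636 and Gm27000, of which Gm27000 shares most of its sequence with Meg3 on chromosome 12.

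Lncpint, an lncRNA induced by p53 that binds the Polycomb complex PRC2, was the only called member of a list of lncRNAs with a described function, of which 11 were tested (median log2 fold change -0.01). It had 17.1 and 9.92 CPM in NSD and 5.69 and 4.87 CPM in SD, without overlap, and a log2 fold change of -1.36 ± 0.228 (SE, adjusted p = 0.0369). Pvt1, a neighbour of Myc, had 8.68 and 8.10 CPM in NSD and 8.68 and 7.95 CPM in SD (log2 fold change -0.01, adjusted p = 0.972). Dubr had 9.94 and 10 CPM and then 13.2 and 10.2 CPM (log2 fold change 0.23, adjusted p = 0.414).

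Norad and Oip5os1 were the most abundant members, and both had higher values in SD. Norad, which keeps Pumilio proteins from their mRNA targets, had 1734 and 1534 CPM in NSD and 2287 and 2064 CPM in SD. The groups did not overlap, and the log2 fold change was 0.41 ± 0.118 (SE), which edgeR did not call (adjusted p = 0.0974). Oip5os1, which directs the destruction of miR-7, had 933 and 758 CPM in NSD and 1213 and 1051 CPM in SD (log2 fold change 0.42 ± 0.128, SE, adjusted p = 0.114). With the batch as a block both were called higher (adjusted p = 0.00456 for Norad and 0.00252 for Oip5os1), as they were by DESeq2 (adjusted p = 9.38e-05 and 0.00209). The within-batch log2 ratios were 0.40 and 0.43 for Norad and 0.38 and 0.47 for Oip5os1. Per kb of exon the NSD level was 327 CPM for Norad and 69.2 CPM for Oip5os1. Of the windows of 100 bases in Norad, 63.8% occur elsewhere in the genome too.

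Gm7292, another of the 10 most abundant members, is in large part a copy of Norad. Of its 2544 distinct stretches of 31 bases, 84.3% occur in Norad, and it has 3.5 Pumilio elements per kb, the only tested member of 1000 or more exon bases with more than Norad. It had 50.7 and 41.8 CPM in NSD and 63.5 and 59.3 CPM in SD. Its log2 fold change of 0.41 ± 0.096 (SE, adjusted p = 0.0611) was the same as that of Norad after rounding. With the batch as a block it was called higher (adjusted p = 0.000857). Reads that match both copies could have been counted for either, so the values of the pair are not independent.

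Among the other abundant members, 1500004A13Rik had 103 and 95.7 CPM in NSD and 110 and 109 CPM in SD (log2 fold change 0.14, adjusted p = 0.314). Dbpht2 had 61.9 and 62.2 CPM and then 58.7 and 54.3 CPM (log2 fold change -0.14, adjusted p = 0.339). C030017B01Rik stayed between 43.6 and 46.7 CPM in all libraries (log2 fold change -0.01, adjusted p = 0.965). None of these 3 was called with the batch as a block either. Gm35040, 3300002P13Rik and Gm43305 had log2 fold changes of 0.22, 0.21 and 0.30, and of these edgeR called Gm43305 alone, with the block (adjusted p = 0.00446). In GENCODE M39 3300002P13Rik overlaps the coding gene Cacng6. Of the windows of 100 bases in Gm43305, 75.1% occur elsewhere in the genome, and for 1500004A13Rik the share was 48.4%.

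The 4 members called higher rose by at most 1.40-fold. Rarer members had larger differences that were called with the batch as a block and not without it, such as Gm13344 and Gm3892 with log2 fold changes of 1.90 and 1.78, both under 1 CPM in every library and picked after their values were seen. Gm9866 lies 173630 bases downstream of Sox11, a transcription factor of young neurons, on the same strand. It had 62.1 and 59.4 CPM in NSD and 81.6 and 78.2 CPM in SD (log2 fold change 0.40 ± 0.0662, SE, adjusted p = 0.0368), while Sox11 rose from 33.4 and 30.1 CPM to 51.0 and 48.1 CPM (log2 fold change 0.64, adjusted p = 0.0328). Gm10010 lies 23664 bases downstream of Tead4, a transcription factor of the Hippo pathway, and had 9.38 and 9.54 CPM in NSD and 13.5 and 13 CPM in SD (log2 fold change 0.48 ± 0.0965, SE, adjusted p = 0.0423). Of the 4, Gm9866 alone was called whichever library was left out. Tead4 itself had a log2 fold change of 0.81 and was not called (adjusted p = 0.187).

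The remaining pair of rises is less secure as intergenic RNA. A830082N09Rik, with 34.6 and 36.5 CPM in NSD and 46.6 and 44.2 CPM in SD (log2 fold change 0.35 ± 0.0705, SE, adjusted p = 0.0426), lies 1499 bases downstream of Rwdd1 in the table, but in GENCODE M39 the gene Rwdd1 covers it on the same strand. Rwdd1 as counted had a log2 fold change of 0.03. Gm17167 had 38.8 and 38.3 CPM and then 53.0 and 46.5 CPM (log2 fold change 0.37 ± 0.0791, SE, adjusted p = 0.0488). Every window of 100 bases in its exons occurs elsewhere in the genome, among other places in pseudogene rows of chromosome 4 such as Gm10599, so reads of those copies cannot be told from its own.

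**Figure D3:**
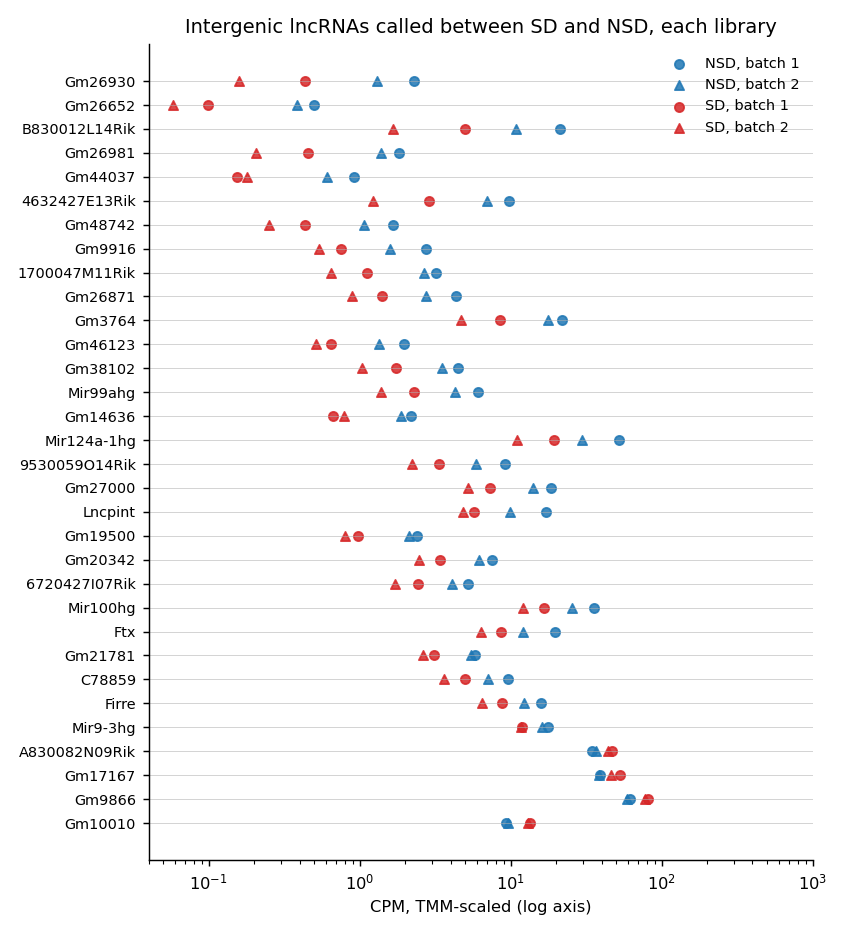
CPM (log axis) of the 32 called intergenic lncRNAs in each library, NSD in blue and SD in red, batch 1 as circles and batch 2 as triangles, ordered by fold change. In every one the SD and NSD libraries do not overlap, and the 4 that rose are at the bottom.

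Among the 10 called members with the largest falls were several known only by a number. Gm26930, 129576 bases from Ptprc on the opposite strand, had 2.30 and 1.30 CPM in NSD and 0.437 and 0.159 CPM in SD, the largest fall among called members at a log2 fold change of -2.60 ± 0.505 (SE, adjusted p = 0.0400). Without the first NSD library it was -2.10, a smaller fall than that of Gm26652 (-2.24), and was not called. It was -3.50 without the first SD library and -2.04 without the second. In the latter case Gm44037 (-2.28) and Gm26652 (-2.13) fell more. Gm26930 is thus not the largest fall in every setting. It lies inside Gm4258, which also spans Mir181a-1hg and its miR-181 gene. The log2 fold changes of Mir181a-1hg and Gm4258, -2.11 and -1.83, were called with the batch as a block and not without it. Gm26652 on the X chromosome had 0.501 and 0.382 CPM and then 0.0996 and 0.0582 CPM (log2 fold change -2.48 ± 0.525, SE, adjusted p = 0.0479), and it was called in the absence of the first SD library alone among the 4 left out in turn. Gm44037 had 0.917 and 0.605 CPM and then 0.155 and 0.180 CPM (log2 fold change -2.18 ± 0.437, SE, adjusted p = 0.0426). All 3 had under 3 CPM in every library.

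Several of these falls share a locus and are not separate measurements. Gm9916, which fell from 2.77 and 1.60 CPM to 0.752 and 0.534 CPM, lies inside Gm26871, the host of Mir137, on the same strand. Gm48742, which fell from 1.67 and 1.07 CPM to 0.437 and 0.249 CPM, lies across Mir100hg on the opposite strand. Of the 32 called members, 17 overlap another row of the table, and whether the counting used strand is not given in the sources used here. Of the 1541 members that overlap no other row, 797 were tested, 13 fell and 2 rose, with a median log2 fold change of -0.19.

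4632427E13Rik and Gm26981 fell beside Rab30, a small GTPase of the Golgi, which did not. 4632427E13Rik starts 134 bases from the start of Rab30 and runs the other way. It had 9.73 and 6.96 CPM in NSD and 2.86 and 1.23 CPM in SD, 8.35 ± 1.96 against 2.05 ± 1.15 (standard deviation, n = 2), a log2 fold change of -2.03 ± 0.35 (SE, adjusted p = 0.0374). Gm26981, 7854 bases from Rab30, had 1.81 and 1.39 CPM and then 0.454 and 0.206 CPM (log2 fold change -2.28 ± 0.421, SE, adjusted p = 0.0397). Without the first SD library these were -2.76 for 4632427E13Rik and -2.95 for Gm26981, and without the first NSD library they were -1.74 and -2.04 and not called (adjusted p = 0.0505 and 0.103). Rab30 had 69.3 and 68.0 CPM in NSD and 81.2 and 79.5 CPM in SD (log2 fold change 0.23 ± 0.063, SE, adjusted p = 0.0926). The stretch that holds both starts is shown, since it is the closest pair of starts among the 10 called members with the largest falls. It covers chr7:92390627-92390926 of GRCm39 on the minus strand, the strand of 4632427E13Rik, from 250 bases before its start to 50 after, and the capitals mark the 134 bases between the starts.
4632427E13Rik start: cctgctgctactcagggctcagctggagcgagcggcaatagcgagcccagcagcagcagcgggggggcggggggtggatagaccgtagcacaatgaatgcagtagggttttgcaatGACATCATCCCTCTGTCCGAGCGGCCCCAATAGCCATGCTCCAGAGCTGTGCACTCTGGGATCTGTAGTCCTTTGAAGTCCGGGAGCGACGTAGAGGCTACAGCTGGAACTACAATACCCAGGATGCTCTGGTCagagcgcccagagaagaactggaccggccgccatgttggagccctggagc

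This window is 60.3% G or C, has 14 CpG pairs, and holds none of the motifs TGANTCA (AP-1), TGACGTCA (CRE) and TATAAA, searched on both strands. The same search was run on the windows of Gm26930, Gm26652, Gm26981, B830012L14Rik and Gm44037. Gm26930 has 1 AP-1 motif and 1 TATAAA, Gm44037 has 1 TATAAA, and the other 3 have none. Of all 28192 such windows in the table, 6.43% hold the AP-1 motif, 1.98% the CRE and 12.8% TATAAA, and of the 1921 windows of the members 8.64%, 1.56% and 12.9% do. The annotated 5′ ends of lncRNAs may differ from their starts in these cells, and the AP-1 and CRE motifs as spelled here cannot match the same bases.

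The members were divided by distance, and the difference between classes was not tested. Over all tested rows 2.33% fell and 0.770% rose. Of the 282 tested members within 1 kb of a coding gene 1 fell and none rose (median log2 fold change -0.14). From over 1 to 5 kb 5 of 155 fell and 1 rose (median -0.24). From over 5 to 50 kb 9 of 328 fell and 2 rose (median -0.20), and beyond 50 kb 13 of 268 fell and 1 rose (median -0.28). From the nearest class to the farthest, the falls were 0.355%, 3.23%, 2.74% and 4.85% of the tested members. Of the microRNA hosts, 10 of the 11 called lie over 5 kb from a coding gene. Among members that far without a microRNA 12 of 568 fell and 3 rose (median -0.20).

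**Figure D4:**
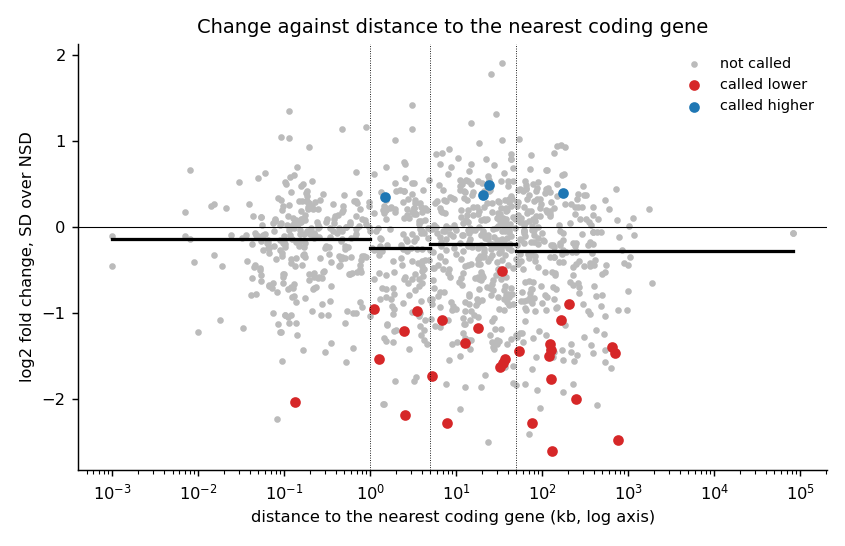
Distance to the nearest coding gene (x, kb, log axis) against the log2 fold change, SD over NSD (y), for the tested members, with the median of each distance class as a black line. The medians run from -0.14 to -0.28, and a single called member lies within 1 kb.

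The medians were also taken by direction relative to the coding gene, and the difference between directions was not tested. Over all tested rows 2.33% fell and 0.770% rose. Members upstream on the same strand had a median log2 fold change of -0.31 (11 of 199, 5.53%, fell, 1 rose). Those downstream on the same strand had -0.09 (3 of 219, 1.37%, fell, 3 rose). Members on the opposite strand with the 5′ ends nearest, the arrangement of a shared promoter, had -0.17 (11 of 463, 2.38%, fell). Those with the 3′ ends nearest had -0.28 (3 of 152, 1.97%, fell). Within 5 kb the medians were 0.02 downstream on the same strand (57 tested, none fell, 1 rose), -0.26 upstream (48 tested, 1 fell), -0.17 with the 5′ ends nearest (285 tested, 5 fell) and -0.28 with the 3′ ends nearest (47 tested, none fell).

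The nearest coding genes were set beside the members. Over the 1002 members whose nearest coding gene was also tested, Pearson's r between the log2 fold changes was 0.12 and Spearman's rho 0.11, a description across genes that share libraries and in part a neighbour. Among the 25 such members that fell, the median log2 fold change of the neighbours was 0.03, and Rtl1 was the only one that was called lower. Over these 25, r was 0.45 and rho 0.35. Beside the 2 largest of these falls, Gm26930 and Gm26652, the neighbours Ptprc and Dipk2b had log2 fold changes of -0.43 and -1.02 and were not called. Dpyd, Degs1, Ubash3b and Slc35d1 had log2 fold changes from -0.09 to 0.06. By position, r was 0.09 over the 432 members within 5 kb, 0.31 over the 56 of them downstream on the same strand, 0.08 over the 284 with the 5′ ends nearest, and 0.25 over the 258 members more than 50 kb away.

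**Figure D5:**
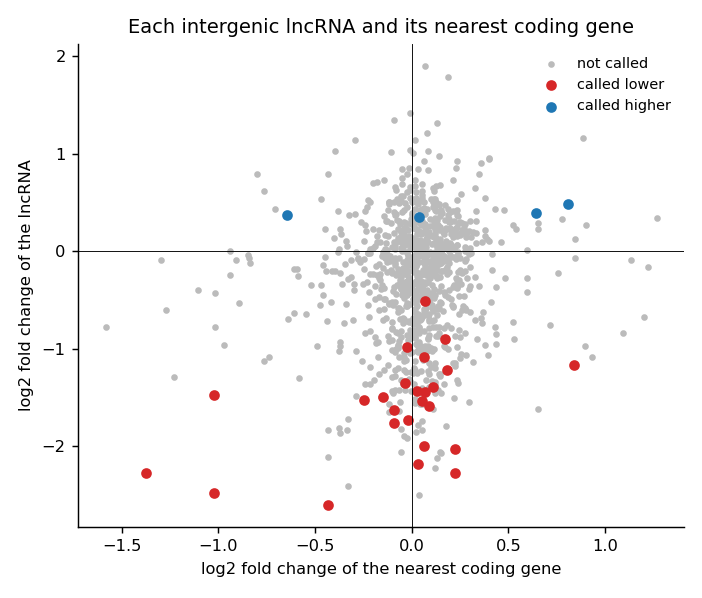
Log2 fold change, SD over NSD, of the nearest coding gene (x) against that of the lncRNA (y) for 1002 members, with the members called lower in red and higher in blue. Most red points lie near 0 on the x axis, with neighbours from -1.37 (Rtl1) to 0.84 at the ends.

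Hosts of small nucleolar RNAs and lncRNAs named for an opposite-strand gene had no calls. Of 8 Snhg members tested none was called (median log2 fold change -0.10). With the block Snhg5, Snhg17 and Snhg20 were called lower, where 8.47% of all rows were. Snhg17 had 6.41 and 4.33 CPM in NSD and 4.06 and 2.20 CPM in SD, without overlap, and Snhg12 had 3.50 and 2.66 CPM and then 3.57 and 2.66 CPM. Of 19 tested members with a symbol ending in os or in os and a digit none was called (median -0.14), Oip5os1 being called higher with the block, and Cep83os had 23.9 and 23.1 CPM in NSD and 26.5 and 23.8 CPM in SD. By kind of symbol, 15 of 629 Gm-numbered, 5 of 310 Rik-named and 8 of 94 otherwise named members fell, with medians of -0.23, -0.15 and -0.18. These were 2.38%, 1.61% and 8.51%, where 2.33% of all rows fell.

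Other classes of rows were compared by their medians. Of the 1568 tested lncRNAs that overlap a coding gene 78 fell and 1 rose (median log2 fold change -0.49), of the 1663 tested TEC rows, a class of unspliced transcripts that await experimental evidence, 307 fell and 7 rose (median -1.51), and of the 15551 tested coding rows 84 fell and 148 rose (median 0.02). Of the 2045 tested processed pseudogenes 15 fell and 1 rose (median -0.01). The TEC rows took 0.273% and 0.210% of the counts in NSD and 0.157% and 0.118% in SD. Nuclear lncRNAs outside the set had lower levels in SD. Malat1, Neat1, Miat, Meg3, Kcnq1ot1, Rian, Mirg and Snhg11 summed to 6381 and 4235 CPM in NSD and to 3293 and 2419 CPM in SD, with 5 of 8 called lower and all 8 lower in SD without overlap. The part of nuclear or unspliced RNA in the falls of the members was not tested.

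Genes that handle nuclear RNA and markers of cell types were looked at as well. Over all rows 2.33% fell, 8.47% fell with the batch as a block and 27.5% were lower in SD without overlap. Of 19 tested genes of the nuclear exosome, which degrades such RNA, and its adaptors 2 fell and none rose (median log2 fold change -0.07), Zcchc7 with -0.86 (adjusted p = 0.0400) and Pabpn1 with -0.66 (adjusted p = 0.0374). Of 9 mRNA export genes none was called (median -0.04). With the batch as a block 3 exosome genes fell, Dis3 (adjusted p = 0.0489) besides these, and 2 export genes did, Nxf1 (adjusted p = 0.0057) and Thoc1 (adjusted p = 0.0128). Among the markers of cell types, none was called without the block, and no marker was at 0 in a library. The 9 markers of CA1 pyramidal cells summed to 6696 and 6999 CPM in NSD and to 6468 and 6892 CPM in SD, with a median log2 fold change of -0.29 and 5 of the 9 lower in SD without overlap between the groups. The 8 endothelial and mural markers summed to 81.5 and 103 CPM in NSD and to 71.5 and 52.9 CPM in SD, with a median log2 fold change of -0.72. Of them 7 were lower in SD without overlap, and their part in the falls was not tested. With the batch as a block 6 of these 8 and 5 of the 9 pyramidal markers were called lower. The interneuron, dentate granule, astrocyte, oligodendrocyte and microglia lists had medians from -0.05 to 0.01. With the block 1 interneuron marker was called lower and 1 oligodendrocyte marker higher.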

How the data were processed

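RNA bound to HA-tagged ribosomes from CA1 was sequenced in 4 libraries. The authors prepared stranded total RNA libraries after ribosomal RNA depletion, aligned the reads with STAR 2.7.8a to mm39 and quantified the genes of Ensembl release 110 with the expectation-maximization model in Partek. The authors deposited estimated counts for each gene, without normalization, and 12.1% of the members have a value that is not whole. Reads matching several genes are divided by that model, which affects overlapping genes and copies. Totals were 162943863 (NSD 1), 153511705 (NSD 2), 181914848 (SD 1) and 195910235 (SD 2), so counting error mattered only for rare members.

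Counts were rounded, and rows with more than 5 in every library (22338) were fitted in edgeR 4.0.16 (R 4.3.3) with TMM scaling and a quasi-likelihood test of condition. A gene was called where the fold change passed 1.2 and the adjusted p was below 0.05. Standard errors are the log2 fold change divided by the root of the F statistic. The script was tested on simulated data. Libraries of a group differed by more than sampling noise (chi-square per degree of freedom 80.6 for NSD and 44.6 for SD). The labels give replicates 1 and 2 the batch numbers 1 and 2, so the numbers pair the libraries. Across genes, the deviations of paired libraries from the mean of their group correlated at 0.289, and a fit with the batch as a block is an alternative beside DESeq2 1.42.0, the tool of the study. Other alternatives changed the count filter, the scaling, the fold change threshold and the members, or left out 1 library. Exons and microRNA genes came from GENCODE M39, with exon models for 1800 members.

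The members and lists were chosen with earlier results of these data known. Named were, among called members without overlap between groups, the 10 with the largest fall and up to 5 with the largest rise (4 were called), then the 10 most abundant members, up to 3 of each list and the nearest coding genes of the first. The other microRNA hosts and called members that are named, and the alternatives on GENCODE M39 overlap and on Norad and Oip5os1, were chosen after the values had been seen.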

Additional observations from a re-analysis of the deposited data

How the results depend on the processing

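With 2 libraries per group the calls rest on few degrees of freedom, and many lay near the threshold. The 28 members called lower became 84 with the batch as a replicate block, 57 with DESeq2, 2 without a count filter, 0 with filterByExpr and 0 with a mean count of at least 10, and 13 among members that overlap no other row. Where edgeR called 0, 128 (filterByExpr) and 124 (mean count) members were lower and 32 and 32 higher at an unadjusted p under 0.05 and a fold change over 1.2. The coding genes Sox11 and Rtl1 lost their calls there too, each at an edgeR adjusted p of 0.0628 (filterByExpr) and 0.0588 (mean count). For settings other than the block and DESeq2, the share of all rows called is not given here. The 4 called higher became 16 with the block, 14 with DESeq2, 1 without a count filter, 0 with filterByExpr, 0 with the mean count filter, 0 at a fold change threshold of 2 and 2 among members that overlap no other row. The 11 microRNA hosts called lower became 20 with the block, 7 with TMM factors from protein-coding genes, 2 without a count filter, 0 with filterByExpr, 0 with the mean count filter and 4 among members that overlap no other row.

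Leaving out 1 library leaves 1 in its group, which is then assumed to vary like the other group. The calls then ranged from 5 (without NSD 1) to 91 (without SD 1) lower, from 3 to 9 (without SD 2) higher, and from 3 (without NSD 1) to 19 (without SD 1) for the microRNA hosts. The median log2 fold change of the members ranged from -0.29 (without SD 1) to -0.09 (without NSD 1), and it was -0.25 to -0.18 under the alternatives that kept all 4 libraries. The ratio of the shares of counts ranged from 1.03 to 1.17 and was 0.906 without Norad and Oip5os1. Ptprc, the coding gene nearest to Gm26930, was called lower without SD 1 (log2 fold change -1.15) and had a log2 fold change of 0.06 without SD 2. The cause of these changes was not tested.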
